A study of Homo sapiens with 2 samples.

Results

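ATF2, ATF3, ATF4, CREM, CREB1, DDIT3 and PPP1R15A are stress and cAMP response genes, and their values in A549 cells, a human lung adenocarcinoma line, are described here with and without paclitaxel, a drug that stabilizes microtubules. The 7 genes were taken by symbol from the deposited expression and skipped exon tables, which together name 10202 genes. Of the 7 genes, 2 had a transcript in the expression table, 5 had an event in the skipped exon table, 1 (ATF3) was in both and 1 (DDIT3) in neither. The tested cells received 7.22 nM paclitaxel and the control cells DMSO, both for 72 h and in the same medium with serum, and RNA of 1 library per condition was sequenced. Without replicates no test was made, and each ratio compares a pair of libraries.

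ATF and CREB proteins carry a basic leucine zipper, bind DNA as dimers and recognize the cAMP response element (CRE). CREB1 and CREM answer to cAMP-dependent phosphorylation, ATF2 to stress-activated MAP kinases, and ATF3 is a stress-induced factor with little expression in resting cells. In the integrated stress response, phosphorylation of the initiation factor eIF2α lowers general translation and favours that of ATF4. ATF4 raises DDIT3 (CHOP), and PPP1R15A (GADD34) brings protein phosphatase 1 back to eIF2α, which closes the loop.

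ATF3 and PPP1R15A were both higher with paclitaxel. Their levels are in FPKM, sequenced fragments relative to the length of the transcript and to all mapped fragments. The ATF3 transcript ENST00000341491 had 27.4 FPKM in the paclitaxel library, against 1.34 FPKM in the DMSO library. This is a 20.4-fold higher level, or a log2 ratio of 4.35. The PPP1R15A transcript ENST00000200453 had 67.0 FPKM in the paclitaxel library, against 22.4 FPKM in the DMSO library, a 2.99-fold higher level and a log2 ratio of 1.58. PPP1R15A was the more abundant of both transcripts in either library, by 2.45 times with paclitaxel and by 16.7 times with DMSO.

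Both are the MANE Select transcript of their gene, the reference transcript shared by the main annotations. That of ATF3 lies on the plus strand at chr1:212608761-212620775 (hg38) and has 4 exons and 1940 bases, and that of PPP1R15A lies on the plus strand at chr19:48872421-48876058 and has 3 exons and 2350 bases. In GENCODE 44, exons of 0 other genes overlapped either of them. No other transcript of either gene was in the table, so what the genes did in sum was not measured here, and fewer or more transcripts per cell cannot be told apart from a change in the mix of cells.

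**Figure D1:**
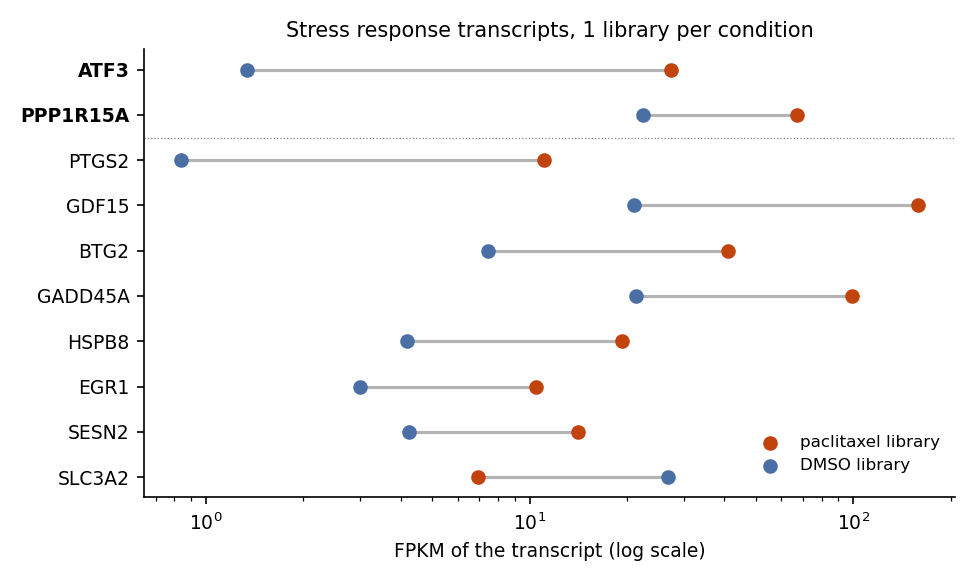
FPKM of each transcript (x axis, log scale) in the paclitaxel library (red) and the DMSO library (blue), 1 library each. ATF3 and PPP1R15A stand above the dotted line, the 8 listed genes of related pathways below it. For ATF3 the points lie at 27.4 and 1.34 FPKM, and SLC3A2 is the 1 gene whose red point lies left of the blue one.

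The ratio of ATF3 was among the larger ones of the table and that of PPP1R15A among the smallest. The table holds only transcripts that passed the authors' test, 993 of 812 genes, and its smallest change in either direction was 2.87-fold. Of the 993 transcripts, 46.1% were higher with paclitaxel and 53.9% were lower, so the direction of 2 transcripts says nothing particular about these genes. Among the 418 higher transcripts with a value above 0 in both libraries, ATF3 was number 43 by ratio and PPP1R15A number 412, and the median log2 ratio of these 418 was 2.92. By level the order was the reverse, with PPP1R15A number 51 and ATF3 number 96 of 993 in the paclitaxel library. In the DMSO library PPP1R15A was number 190 and ATF3 number 635.

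**Figure D2:**
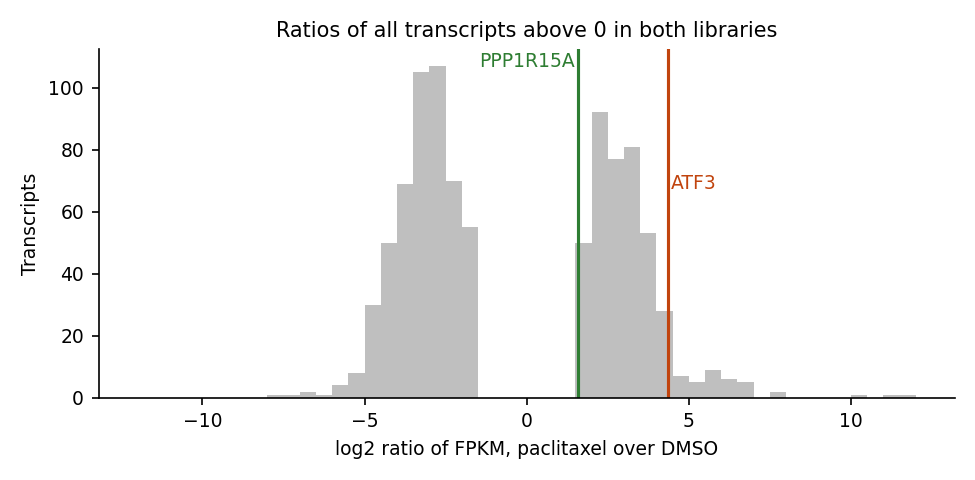
Number of transcripts (y axis) by log2 ratio of FPKM, paclitaxel over DMSO (x axis, steps of 0.5), for the 921 transcripts above 0 in both libraries. The gap around 0 comes from the selection of the table. The PPP1R15A line at 1.58 stands at the inner edge of the higher group, and the ATF3 line at 4.35 in its outer part.

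Of the other members, ATF2, ATF4, CREM, CREB1 and DDIT3 had no transcript in this selected table and their levels were not analysed here. This gives no value for them and does not show that they kept their level. The same holds for most of the genes around them. Of 189 further genes in 8 lists, 8 were in the table, 7 of them higher and 1 lower. For comparison, 46.1% of the 993 listed transcripts were higher and 53.9% were lower. The selected table does not give the number of genes tested, so no share of all genes can be set beside 8 of 189. This also holds for the counts of single lists and of markers below. For 5 lists there was no gene in the table: the 18 other ATF and CREB family genes, 19 dimer partners of the JUN, FOS, MAF and C/EBP groups, 20 coactivators and kinases of CREB, 17 genes of the eIF2α kinases and phosphatase, and 25 genes of the ATF6 and IRE1 branches of the unfolded protein response.

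Of 47 target genes of ATF4 and CHOP, 3 were in the table, and they did not share a direction. GDF15, a secreted stress cytokine that is also a p53 target, had 158 FPKM with paclitaxel and 21.0 FPKM with DMSO. SESN2, a sestrin that restrains mTORC1, had 14.2 FPKM with paclitaxel and 4.25 FPKM with DMSO. SLC3A2, the heavy chain of several amino acid transporters, was lower in both of its listed transcripts. Its more abundant transcript ENST00000377890 had 6.93 FPKM with paclitaxel and 26.7 FPKM with DMSO, a log2 ratio of -1.95, and ENST00000377889 had 3.78 FPKM with paclitaxel and 17.1 FPKM with DMSO. The median log2 ratio of the 3 genes was 1.74, which is the value of SESN2, and GDF15 had 2.91. Both were below 2.92, the median of the higher transcripts with values above 0. Over all 921 transcripts of the table with values above 0 the median was -1.93, since 503 of them were lower and 418 higher.

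Of 34 cAMP response and immediate early genes, 4 were in the table and all 4 were higher, where 46.1% of all transcripts in the table were higher. Their median log2 ratio was 2.34, below the 2.92 of all higher transcripts with values above 0. PTGS2, the inducible cyclooxygenase, had 11.1 FPKM with paclitaxel and 0.838 FPKM with DMSO, the largest ratio of the 4 (log2 ratio 3.72). EGR1, an immediate early zinc finger factor, had 10.4 FPKM with paclitaxel and 2.98 FPKM with DMSO. BTG2, an antiproliferative p53 target, had 41.0 FPKM with paclitaxel and 7.42 FPKM with DMSO. GADD45A, a growth arrest gene, was higher in both of its listed transcripts, the more abundant of which had 99.3 FPKM with paclitaxel and 21.4 FPKM with DMSO. Of 17 heat shock genes, 1 was in the table, the small heat shock protein HSPB8, with 19.3 FPKM with paclitaxel and 4.18 FPKM with DMSO.

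The transcripts whose levels in both libraries came nearest to those of ATF3, by distance in log2(FPKM + 1) over 2 libraries, were of CRYAB, CTSD and NRG1. CRYAB, a small heat shock protein of the crystallin family, had 27.1 FPKM with paclitaxel and 2.14 FPKM with DMSO, at a distance of 0.43. It was not among the 17 heat shock genes of the list above, so such counts depend on the genes chosen. CTSD, a lysosomal protease, lay at a distance of 0.53 and NRG1, a growth factor of the EGF family, at 0.58. With 2 libraries this says only that their levels were close.

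Transcripts known as markers of other cell types were also higher with paclitaxel. Of 13 markers of red blood cells, 3 were in the table and were higher with paclitaxel. Their summed level was 458 FPKM with paclitaxel and 0.118 FPKM with DMSO, where HBB was listed at 0. Of 17 markers of white blood cells the table held S100A9, with 5.85 FPKM with paclitaxel and 0.123 FPKM with DMSO, and of 14 markers of fibroblasts and endothelium it held ACTA2, with 34.5 FPKM with paclitaxel and 6.23 FPKM with DMSO. Of 15 markers of lung epithelium it held KRT19, with 107 FPKM with paclitaxel and 22.9 FPKM with DMSO. The identity of the line cannot be checked further from a table of changed transcripts. The part of these transcripts in the ATF3 and PPP1R15A ratios was not tested.

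The promoter of PPP1R15A is shown because it holds the palindromic CRE, the site after which CREB1 and CREM are named. The window is the 250 bases before the RefSeq start, on the plus strand of GRCh38, at chr19:48872171-48872420. Capitals mark the CRE, TGACGTCA, at bases 58 to 51 before the start, and a single copy of the shorter motif TGACG at bases 152 to 148.
PPP1R15A: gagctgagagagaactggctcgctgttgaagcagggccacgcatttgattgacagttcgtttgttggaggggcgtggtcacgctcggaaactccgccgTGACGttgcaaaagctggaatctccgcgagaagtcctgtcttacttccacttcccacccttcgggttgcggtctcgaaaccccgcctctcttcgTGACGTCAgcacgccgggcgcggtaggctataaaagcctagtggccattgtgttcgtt
The second window stands before an internal RefSeq start of CREM, at chr10:35195652-35195901 on the plus strand, and capitals mark its CRE at bases 50 to 43 before that start. Short CREM products known as ICER, which repress CRE-driven transcription, come from an internal promoter of this gene.
CREM: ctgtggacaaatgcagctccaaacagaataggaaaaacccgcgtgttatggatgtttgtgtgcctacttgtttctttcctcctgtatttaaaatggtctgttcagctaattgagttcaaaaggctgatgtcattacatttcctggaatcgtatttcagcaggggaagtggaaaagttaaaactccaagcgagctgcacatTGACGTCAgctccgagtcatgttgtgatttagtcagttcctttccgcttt
The search covered both strands of the 250 bases before each start. TGACGTCA is its own reverse complement and contains TGACG on both strands. It was found in 1.65% of 35116 promoters of the RefSeq table, and TGACG or CGTCA in 21.2%. Promoters of 6 of the 7 genes were matched, all but ATF2. CREM had 7 windows, of which 1 held the CRE. ATF3, ATF4 and DDIT3 had 2 windows each, and CREB1 and PPP1R15A 1 each. Outside the windows printed here, the CRE was found in none of those searched. The 2 windows of ATF3 belong to other starts than that of ENST00000341491, whose own promoter was not searched. CGTCA alone was found before both starts of ATF4, and TGACG alone at 2 places of the CREM window chr10:35126977-35127226. The AP-1 motif TGANTCA, which 6.57% of promoters hold, was found before both starts of DDIT3. The CHOP-type amino acid response element TTGCATCA, held by 0.77% of promoters, was also searched for and was found in none of the windows. In ATF4 and in DDIT3 the windows of both starts overlap, and the matches before either start are the same sites. A match is a string of letters and not evidence of binding.

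The skipped exon table listed 35 events in 5 of the 7 genes, and they centred on CREM and ATF2. Each event names an exon that a transcript may keep or leave out, together with the exon on either side of it. CREM had 15 events, ATF2 had 12, CREB1 had 6, and ATF3 and ATF4 had 1 each, against a median of 3 over the 9939 genes of the table. At least as many events as for CREM were listed for 1.38% of these genes, and for ATF2 the share was 3.17%. The reads of each library were not used, since their columns are headed sample 1 and sample 2 and name no condition. What follows therefore describes which exons were listed, and not how often they were kept in either library.

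The 35 events concerned 22 distinct exons. Their lengths ran from 36 to 318 bases with a median of 115, against 121 over all 31247 exons of the table. A length that is a multiple of 3, which keeps the reading frame when the exon is left out of a coding region, was found for 8 of the 22 exons (36.4%), against 41.0% in the whole table. By GENCODE 44, 12 exons were wholly coding in at least 1 transcript, 4 partly coding, 2 in untranslated regions, and 4 present only in transcripts not annotated as protein coding. Of the 12 wholly coding exons, 5 had a length that is a multiple of 3 and 7 did not. The junction that skips the exon was annotated for 23 of the 35 events (65.7%), against 49.3% of all events. All 22 exons are annotated exons, as were 99.9% of the exons in the whole table. All 22 have AG before them and GT after them, which was not counted for the other exons.

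**Figure D3:**
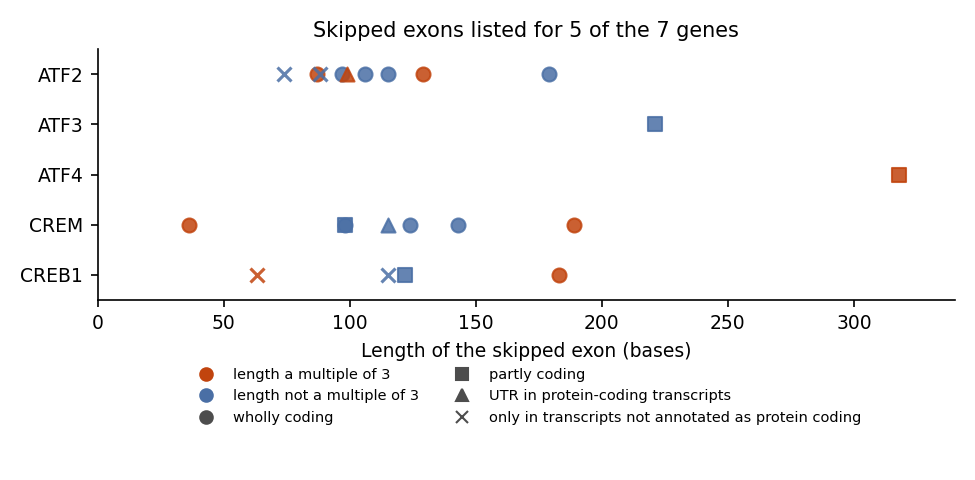
Length in bases (x axis) of the 22 listed skipped exons of each gene (rows), red where the length is a multiple of 3 and blue where it is not, with the marker giving the annotation. CREM spans 36 to 189 bases, and its exons of 98 bases, 1 partly and 1 wholly coding, lie on top of each other.

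In CREM, the cAMP-responsive element modulator, the events covered 7 exons on chromosome 10. The gene has 48 transcripts in GENCODE 44. Exons 2 to 6 of its MANE Select transcript were all listed. Exon 6, at chr10:35188200-35188388, has 189 bases, is wholly coding and keeps the frame. Exons 3, 4 and 5 have 124, 98 and 143 bases and do not keep it. An exon of 115 bases at chr10:35178872-35178986 overlaps exon 4 and shares its end.

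The exon with the most events among the 7 genes was the CREM exon of 36 bases at chr10:35201451-35201486, which is not in the MANE Select transcript. It was listed 4 times, with the same downstream exon and 4 different upstream exons. For all 4 events both the skipping junction and the inclusion junctions were annotated. The exon is in 10 transcripts of the gene, all protein coding, and keeps the frame. Of its upstream neighbours, the exons at chr10:35195127-35195214 and chr10:35195909-35196099 are the first exon of every transcript that holds them, 2 and 1. The second of these begins just after the CREM window printed above. The exon is shown in capitals between 10 intron bases on each side.
CREM exon of 36 bases: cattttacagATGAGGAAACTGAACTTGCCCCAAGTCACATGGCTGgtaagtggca

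CREB1, the cAMP response element-binding protein, had 4 exons in its 6 events. Exon 2 at chr2:207555628-207555749 holds the start of the coding region, with 114 coding bases of 122. Exon 6 at chr2:207575272-207575454 has 183 bases, keeps the frame and was listed in 2 events. The other listed exons, of 63 and 115 bases, are each in a single transcript that is not annotated as protein coding. Exon 6 of CREB1 is the counterpart of exon 6 of CREM by sequence and by place, since exon 5 has 143 bases in both genes. In a global alignment, 138 of 183 aligned bases were identical (75.4%) and 6 further bases of CREM had no partner. These 2 exons are printed because they are counterparts that keep the frame, and both were listed in skipped exon events. Capitals mark the bases identical in the alignment, and both genes are on the plus strand.
CREM exon 6: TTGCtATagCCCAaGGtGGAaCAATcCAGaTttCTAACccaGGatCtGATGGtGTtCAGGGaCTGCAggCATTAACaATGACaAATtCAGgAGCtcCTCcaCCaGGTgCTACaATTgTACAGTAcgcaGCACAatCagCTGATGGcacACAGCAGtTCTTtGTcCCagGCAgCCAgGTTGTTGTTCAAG
CREB1 exon 6: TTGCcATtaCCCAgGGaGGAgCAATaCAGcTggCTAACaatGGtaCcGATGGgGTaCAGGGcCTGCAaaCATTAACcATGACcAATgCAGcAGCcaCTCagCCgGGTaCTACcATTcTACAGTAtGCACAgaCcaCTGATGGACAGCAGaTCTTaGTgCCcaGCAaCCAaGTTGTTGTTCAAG

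In ATF2, a partner of JUN that stress-activated kinases phosphorylate, the events covered 9 exons on the minus strand of chromosome 2. The 7 that belong to the MANE Select transcript are exons 2, 5, 7, 8, 9, 10 and 13 of 14, and exon 2 is untranslated. Exons 7 and 10 are the wholly coding ones that keep the frame, with 129 and 87 bases. Exon 10, at chr2:175111568-175111654, was listed 3 times with different upstream exons. Its inclusion junctions were annotated in all 3 events and its skipping junction in 0, whereas 6 of the 12 ATF2 events had an annotated skipping junction. The exon is shown in capitals, in the direction of the gene, between 10 intron bases on each side.
ATF2 exon 10: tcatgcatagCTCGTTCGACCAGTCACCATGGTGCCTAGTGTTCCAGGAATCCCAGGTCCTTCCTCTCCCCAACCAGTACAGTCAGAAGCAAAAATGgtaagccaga

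**Figure D4:**
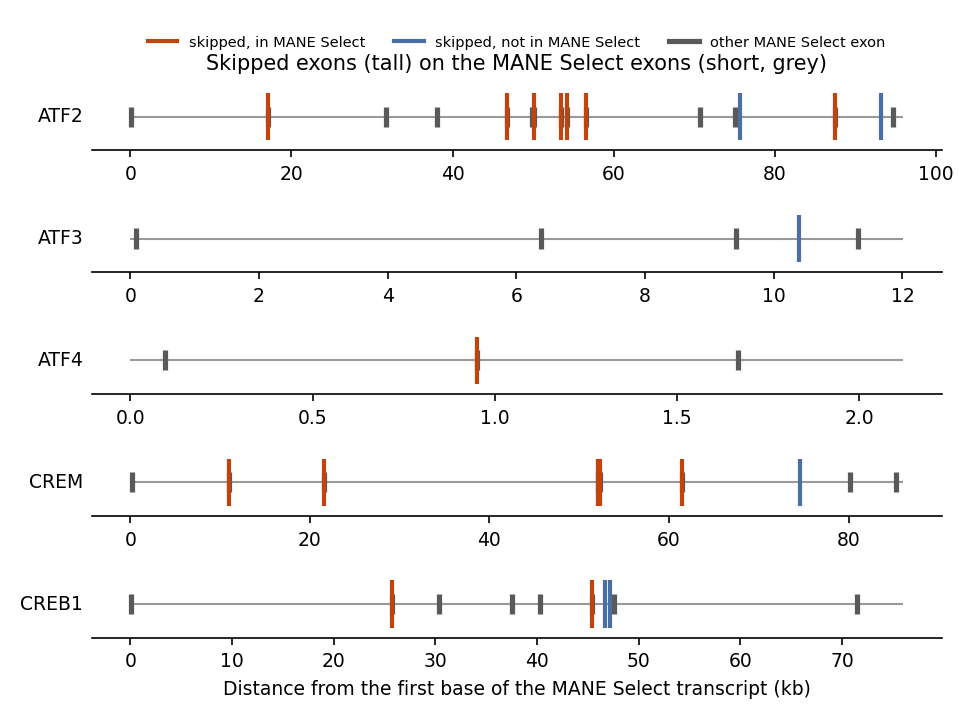
Position of the skipped exons (tall bars, red for exons of the MANE Select transcript, blue for others) and the remaining MANE Select exons (short grey bars) along each gene, in kb from the first base of the MANE Select transcript and in the direction of the gene. Introns are to scale and bars are wider than the exons. ATF2 and CREM hold most of the bars, and the single ATF3 bar lies between exons 3 and 4.

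ATF3 and ATF4 had a single event each. The ATF3 exon, at chr1:212619046-212619266, has 221 bases and lies between exons 3 and 4 of the transcript that was higher with paclitaxel, which does not contain it. It is in 2 of the 10 annotated transcripts of the gene. In the 1 of them that is protein coding, the coding part ends within the exon after 57 bases. Forms of ATF3 that lack the leucine zipper through alternative splicing are known. The ATF3 FPKM above is the estimate for the transcript without this exon, and no transcript with it was in the expression table.

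The ATF4 exon is exon 2 of 3 of its MANE Select transcript, at chr22:39521354-39521671. It has 318 bases, a multiple of 3, of which 226 are coding, and it was the longest of the 22. It thus holds the start of the ATF4 reading frame. Translation of ATF4 is known to be controlled by short reading frames that begin upstream of that start, the last of which overlaps the coding region in another frame. PPP1R15A and DDIT3 had no event in the table, which covers skipped exons only. For DDIT3 the authors report a change of another type, more use of an upstream 3′ splice site with paclitaxel. They took this target from their RNA sequencing and examined it by RT-PCR in A549 cells and another lung cancer line. The MANE Select transcripts of PPP1R15A and DDIT3 have 3 and 4 exons, and exon 2 of PPP1R15A carries 1665 of its coding bases.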

How the data were processed

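RNA of A549 cells was sequenced in 1 library per condition, paclitaxel or DMSO. Mapping to hg38 was done by the authors with MapSplice, and FPKM per transcript were estimated with Cufflinks, and the submitters' processing notes also name CASAVA 1.8.2 and TopHat. The deposited FPKM table holds only transcripts with an adjusted p under 0.05 in the authors' test. The column headed with T was taken as the paclitaxel library, since only that sample's labels give a treatment. Read depth is unknown from FPKM. The deposited skipped exon table has the layout of MATS (version not given in the sources used here). From it only the other values, the exon coordinates, were used. Its 6 columns of reads and inclusion levels, which cover both libraries, name no sample and were left out. Columns of the authors' own comparisons in both tables (log2 fold change, p-values, false discovery rates, inclusion differences) were not used, apart from the check that the table's adjusted p stays under 0.05.

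Log2 ratios (paclitaxel over DMSO) were computed without a pseudocount, and a transcript was counted as higher or lower from 2-fold. A gene with several transcripts was represented by that with the highest FPKM in either library. Named genes were all members, every listed gene of the fixed lists and the 3 transcripts nearest to ATF3. Members and lists were chosen with earlier results of these data known. The code for ratios and counts was checked on simulated data with known folds, which is no test of the values reported. Exons were annotated with GENCODE 44 and read from hg38, promoters came from the RefSeq table, and exons were aligned with Biopython 1.88 (match 2, mismatch -1, gap opening -5, extension -1). Python 3.11.15 and pandas 2.3.3 were used.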

Additional observations from a re-analysis of the deposited data

How the results depend on the processing

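The count of 2 higher and 0 lower genes was the same when both libraries had to reach 1 FPKM and with log2(FPKM + 1) or log2(FPKM + 0.1). Every transcript with values above 0 in both libraries changed by at least 2.87-fold in the selected table. Both genes also exceeded 1 FPKM in both libraries, so these settings could hardly alter the count. At a 4-fold threshold 1 gene, ATF3, was counted as higher. The log2 ratio of ATF3 was 3.60 with log2(FPKM + 1) and 4.25 with log2(FPKM + 0.1), and that of PPP1R15A 1.54 and 1.58. Summing over the listed transcripts of a gene changed neither ratio, since each gene has a single one. Of the further genes in the lists, 7 were higher and 1 lower, also with summed transcripts, and 6 were higher with at least 1 FPKM in both libraries. The 35 skipped exon events became 22 when each exon was counted once and 20 without exons that overlap another listed exon. No paired analysis was possible because each condition has 1 library. With 1 library per condition and levels given only as FPKM, neither the replicate error nor the counting error of these levels is known.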
